A study of Mus musculus with 12 samples.

Results

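Chromatin accessibility was described at the genes of 6 receptors of the signalling lymphocytic activation molecule (SLAM) family, namely Slamf1, Slamf6, Slamf7, Ly9, Cd48 and Cd84, at Sh2d1a, which encodes the adaptor SAP, and at Fyn, which encodes a Src family kinase. Every region of the deposited table that overlapped the body of 1 of these 8 genes in GENCODE vM21, extended by 10 kb on either side, was taken, which gave 73 of 63309 regions. ATAC-seq, in which a transposase inserts sequencing adapters into open chromatin, had been performed on invariant natural killer T (iNKT) cells of the thymus, and the 3 subsets iNKT1, iNKT2 and iNKT17 were compared within and between C57BL/6 and Hivep3-/- mice. The 6 groups had 2 libraries each and came from untreated mice aged 8 to 9 weeks, with wild-type C57BL/6 mice as controls and Hivep3-/- mice on the same background lacking the zinc finger protein Hivep3. iNKT1 cells were sorted as CD122+ ICOS-, iNKT2 cells as ICOS+ Izumo1r+ CD138- and iNKT17 cells as ICOS+ CD138+ cells. Thymi were pooled, the sorted subsets were put together for the transposition and were separated again by ICOS and CD138, so the subsets of a pool shared a reaction. The titles of the samples number mice while the protocol names pooled thymi, and p-values therefore measure the spread between these libraries, which may be partly technical. The deletion is present in the whole animal, and the labels do not give the deleted part of Hivep3.

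iNKT cells are selected on lipids that neighbouring CD4+CD8+ thymocytes present on CD1d, and SLAM receptors on the touching thymocytes bind each other and add a further signal. Most of these receptors bind their own kind on the next cell, while CD48 binds the receptor encoded by Cd244a. The tails of the SAP-binding receptors carry tyrosine motifs that take up SAP, and SAP in turn brings in FYN, which phosphorylates the receptor. Loss of SAP or FYN is known to reduce iNKT cell development severely.

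The 6 receptor genes lie in a cluster of 364.547 kb on chromosome 1 (GRCm38.p6, 171588624 to 171953170) with 35 of the 73 regions, and no region fell within the span of 2 of the 8 genes. Slamf7 (ENSMUSG00000038179.13, chr1:171632403-171653035, minus strand) had 9 regions, Slamf1 (ENSMUSG00000015316.11, chr1:171767127-171801184) 7 and Cd48 (ENSMUSG00000015355.13, chr1:171682009-171705258) 7. Slamf6 (ENSMUSG00000015314.10, chr1:171917515-171953170) had 5 regions, Ly9 (ENSMUSG00000004707.14, chr1:171588624-171607410, minus strand) 4 and Cd84 (ENSMUSG00000038147.13, chr1:171839697-171890718) 3. Sh2d1a (ENSMUSG00000005696.11, chrX:42502453-42529330) had 2 regions and Fyn (ENSMUSG00000019843.14, chr10:39368855-39565381) had 36, the most of the 8 genes. Relative to their own gene, 13 regions were at a promoter (within 1000 bp of an annotated start), 4 overlapped an exon, 43 were intronic, 9 upstream and 4 downstream. Each region is 500 bp long, so levels can be set side by side between genes per kilobase.

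Sequence is given for the central 300 bases of 5 regions. The Slamf6 and Slamf7 regions and the Fyn region at 39430420 are shown because their change between genotypes, or the difference of that change between subsets, passed the test, and the Fyn region at 39515162 because it had the largest fall between C57BL/6 subsets. All 5 windows are from GRCm38.p6, read 5′ to 3′ on the plus strand, and overlap no exon. Capitals mark matches to the short motifs described with the sequence features at the end.
Slamf6, 8.332 kb past the gene end, chr1:171961602-171961901: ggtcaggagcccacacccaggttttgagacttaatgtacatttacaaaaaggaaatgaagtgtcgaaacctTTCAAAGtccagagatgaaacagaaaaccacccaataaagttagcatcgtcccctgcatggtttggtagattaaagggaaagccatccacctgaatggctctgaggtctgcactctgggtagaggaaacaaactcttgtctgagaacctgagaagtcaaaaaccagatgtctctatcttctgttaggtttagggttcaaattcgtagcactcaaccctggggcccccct
Slamf7, 2.778 kb past the gene end, chr1:171629226-171629525: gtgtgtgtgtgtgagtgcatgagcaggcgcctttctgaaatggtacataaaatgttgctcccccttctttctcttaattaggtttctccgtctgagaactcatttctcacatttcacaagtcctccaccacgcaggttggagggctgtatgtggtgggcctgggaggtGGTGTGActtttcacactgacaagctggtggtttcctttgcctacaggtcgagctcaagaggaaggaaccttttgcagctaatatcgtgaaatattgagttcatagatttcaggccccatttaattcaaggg
Slamf7, intron, chr1:171636800-171637099: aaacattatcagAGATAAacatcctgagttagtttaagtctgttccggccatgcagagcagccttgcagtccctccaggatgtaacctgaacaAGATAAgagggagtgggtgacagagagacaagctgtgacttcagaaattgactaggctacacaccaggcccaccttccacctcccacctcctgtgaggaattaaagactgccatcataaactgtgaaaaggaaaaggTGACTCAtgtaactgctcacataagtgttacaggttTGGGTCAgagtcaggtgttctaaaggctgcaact
Fyn, intron, chr10:39430420-39430719: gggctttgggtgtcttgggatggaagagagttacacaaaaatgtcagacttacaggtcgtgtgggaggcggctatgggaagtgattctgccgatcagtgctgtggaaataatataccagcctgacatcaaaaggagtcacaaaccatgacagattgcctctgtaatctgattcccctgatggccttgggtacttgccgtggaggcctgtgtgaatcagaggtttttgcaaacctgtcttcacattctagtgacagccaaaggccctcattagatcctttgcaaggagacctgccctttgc
Fyn, intron, chr10:39515162-39515461: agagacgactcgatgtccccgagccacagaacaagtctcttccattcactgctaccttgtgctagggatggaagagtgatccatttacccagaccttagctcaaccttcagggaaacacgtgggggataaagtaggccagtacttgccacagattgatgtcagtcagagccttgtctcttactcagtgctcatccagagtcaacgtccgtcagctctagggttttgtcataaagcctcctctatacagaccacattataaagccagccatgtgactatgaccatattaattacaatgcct

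The values are the log2 of transposase insertions per kilobase after the authors' normalization, and a region is called accessible in a group when its linear mean there was at least 5. The linear sums of the libraries, 1915051 to 1919037, are fixed by the normalization and do not show the depth, which is unknown. As a rough guide to depth, different values were counted among the regions at or below the median of each library, which gave 73 to 491, and the genotypes did not overlap in any subset. It was lower in Hivep3-/- than C57BL/6 mice in iNKT2 (91 and 118 against 219 and 159) and iNKT17 libraries (85 and 73 against 142 and 134) and higher in iNKT1 libraries (227 and 491 against 139 and 170). At the Hivep3 locus 0 of the 20, 18 and 12 regions tested in iNKT1, iNKT2 and iNKT17 cells were called between genotypes by limma, which does not check the genotype, since the deleted part is not known. Of 14 promoters of subset marker genes, 13 were most accessible in the labelled subset in both genotypes, the exception being Gata3, which was highest in iNKT1 cells. Of the markers of other cells, none of 4 genes of CD4+CD8+ thymocytes had a promoter region, 2 of 4 of B cells had one with summed levels of 14.3 to 36.2, and 1 of 4 of myeloid cells had one at 16.9 to 40.8. In bulk libraries, fewer cells with open chromatin and less opening per cell cannot be told apart.

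Across the promoters, Fyn was the most open and stood at 7.04 to 7.48 in all 12 libraries. Ly9, whose product is known to restrain iNKT cells, followed at 4.62 to 5.33, and this region also lies within Cd244a. Cd84 stood at 4.08 to 4.52, Sh2d1a at 3.63 to 4.82, Cd48 at 3.55 to 4.64 and Slamf1 at 3.62 to 4.31, with ranges that overlapped one another. The promoters of Slamf6, at 2.66 to 4.67, and Slamf7, at 2.50 to 4.87, varied most, and their 6 group means spanned 3.20-fold and 4.20-fold. The group means of the other 6 promoters spanned between 1.20-fold (Cd84) and 1.86-fold (Sh2d1a). No promoter passed the test between genotypes in any subset or on their average, in each case with an adjusted p of at least 0.152 by limma.

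**Figure D1:**
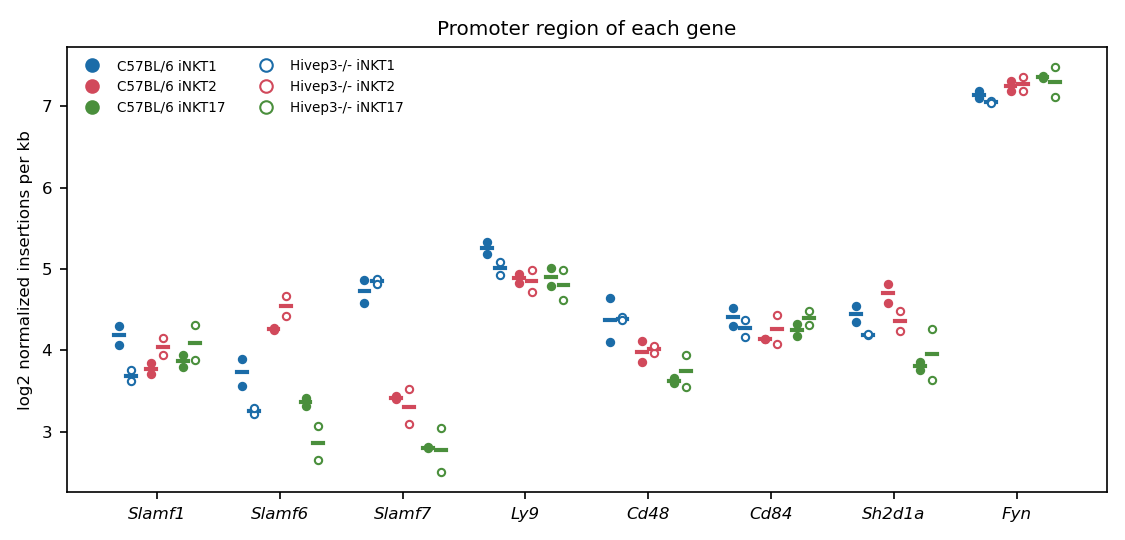
Promoter accessibility of the 8 genes in log2 normalized insertions per kb, with filled points for C57BL/6 and open points for Hivep3-/- libraries, colours for subsets and bars for the mean of 2 libraries. Fyn lies above 7 throughout, whereas Slamf7 ranges from 2.50 to 4.87 and is highest in the 4 iNKT1 libraries.

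Slamf7, which encodes a receptor best known from natural killer and plasma cells and whose tail takes up a relative of SAP, was the most subset-dependent of the 8 loci. All 9 of its regions were highest in iNKT1 cells in both genotypes. In C57BL/6 mice the accessible regions numbered 9 for iNKT1, 5 for iNKT2 and 3 for iNKT17 cells, and in Hivep3-/- mice 9, 2 and 3. Averaged over its regions, the log2 level was 4.70 and 4.63 in the C57BL/6 iNKT1 libraries, 2.48 and 2.38 in iNKT2 and 1.38 and 1.03 in iNKT17. In Hivep3-/- libraries it was 4.59 and 4.54 in iNKT1, 1.74 and 1.40 in iNKT2 and 1.53 and 1.12 in iNKT17. The libraries of the subsets did not overlap in C57BL/6 mice, and in Hivep3-/- mice iNKT1 stood apart while iNKT2 and iNKT17 overlapped.

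The promoter of Slamf7 (chr1:171648741-171649240, at the start of a shorter transcript 4.04 kb inside the gene) read 4.86 and 4.58 in C57BL/6 iNKT1, 3.44 and 3.40 in iNKT2 and 2.82 and 2.80 in iNKT17 libraries. The Hivep3-/- values were 4.87 and 4.82, 3.52 and 3.10, and 3.05 and 2.50 in the same order. iNKT1 libraries were the highest in both genotypes without overlap. The promoter was 3.78-fold higher in C57BL/6 iNKT1 than iNKT17 cells (log2 difference 1.92, SE 0.21, adjusted p = 5.34e-06 by limma) and 4.20-fold higher in Hivep3-/- mice. Against iNKT2 cells it was higher by 1.30 in C57BL/6 mice (SE 0.21, adjusted p = 0.000212 by limma), which is under 3-fold. Another region within 1000 bp of an annotated start (171648099) was at 3.79 and 3.29 in C57BL/6 iNKT1 libraries but between -2.29 and -0.55 in iNKT2 and iNKT17 libraries. It had the largest differences of the members in C57BL/6 mice on the side of iNKT1, 4.31 (SE 0.54) from iNKT2 and 4.98 (SE 0.54) from iNKT17 cells. It entered both tests only through iNKT1, where it was high.

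The strongest Slamf7 region, in an intron at 171643567, was 7.07 and 6.98 in C57BL/6 iNKT1, 6.20 and 6.10 in iNKT2 and 4.56 and 4.25 in iNKT17 libraries. It was open in every group, and the C57BL/6 subsets did not overlap. Its iNKT1 level was 6.17-fold above iNKT17 (log2 difference 2.63, SE 0.13), and its iNKT2 level 3.37-fold (1.75, SE 0.13). Downstream of the gene, the region at 171627713 did not follow this order. There, C57BL/6 iNKT1 libraries read 4.64 and 4.75, iNKT17 libraries 3.80 and 3.88 and iNKT2 libraries 1.86 and 2.00, and iNKT2 was the lowest subset. Its level in iNKT2 was 3.76-fold below that in iNKT17 cells in C57BL/6 (log2 difference -1.91, SE 0.25) and 3.99-fold below it in Hivep3-/- mice. In C57BL/6 mice the region entered that test only through iNKT17.

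**Figure D2:**
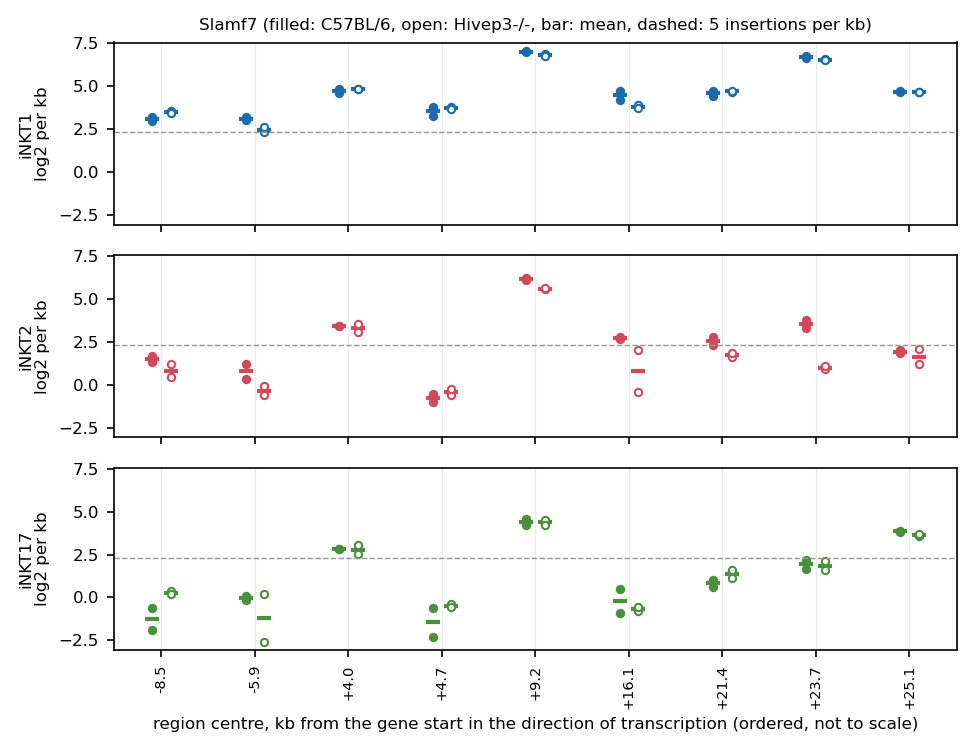
The 9 regions of Slamf7 in each library, ordered by kb from the gene start (spacing not to scale), in 1 panel per subset. The vertical axis is log2 normalized insertions per kb, filled points are C57BL/6, open points Hivep3-/-, short bars the mean of 2 libraries, and the dashed line marks 5 insertions per kb. All means lie above the line in iNKT1, and the genotypes separate in iNKT2 at the region 23.66 kb from the start.

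Between genotypes, Slamf7 fell in iNKT2 cells at 2 regions. The region 2.778 kb past the gene end (chr1:171629126-171629625) stood at 3.81 and 3.31 in C57BL/6 iNKT2 libraries and at 0.90 and 1.10 in Hivep3-/- iNKT2 libraries. In iNKT1 it was 6.77 and 6.67 in C57BL/6 against 6.60 and 6.52 in Hivep3-/- libraries, and in iNKT17 2.20 and 1.65 against 2.13 and 1.57. The iNKT2 libraries of the genotypes were far apart, those of iNKT17 overlapped, and those of iNKT1 differed by less than 0.3. The fall in iNKT2 was 5.87-fold (log2 change -2.55, SE 0.24, adjusted p = 9.30e-05 by limma). The call held without each library in turn and with either replicate block, and of the other settings only a pseudocount of 5 brought the change under 3-fold (-1.26).

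The intronic region at 171636700, part of the same iNKT1-open set, was 2.67 and 2.77 in C57BL/6 iNKT2 but 2.03 and -0.41 in Hivep3-/- iNKT2 libraries. The Hivep3-/- replicates differed by more than 2 log2 units, and both were below the C57BL/6 libraries. The change was -1.91 (SE 0.62, 3.76-fold, adjusted p = 0.0676 by limma). Without Hivep3-/- iNKT2 replicate 2 it was -0.69 with an adjusted p of 0.441 by limma, so the call rested on that library, and leaving out C57BL/6 iNKT2 replicate 1 or 2 gave adjusted p-values of 0.207 and 0.233 by limma. Of the 9 Slamf7 regions, 4 were not tested in iNKT2 cells and 3, both called regions among them, entered the test only through their C57BL/6 level, so no count of directions is given. Nothing was called at Slamf7 in iNKT1 (9 tested) or iNKT17 cells (3 tested).

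Of the 4 iNKT1 markers, Ifng differed most clearly between genotypes in iNKT2 cells. The promoter of Ifng had linear means of 28.2 in C57BL/6 and 6.64 in Hivep3-/- iNKT2 cells. That of Tbx21 had 23.9 and 19.5, that of Il2rb 197 and 188, and that of Klrb1c went the other way with 5.65 and 8.03. Summed over all 4 iNKT1 markers, C57BL/6 iNKT2 libraries read 251 to 258 and Hivep3-/- iNKT2 libraries 210 to 235. The 5 iNKT17 markers also summed lower in Hivep3-/- (33.0 to 37.3) than in C57BL/6 iNKT2 libraries (53.8 to 60.6), with Blk at 16.8 and 38.4. Their part in the fall at Slamf7 was not tested. The lower depth measure of the Hivep3-/- iNKT2 libraries goes with the same comparison, and its part was not tested either.

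Slamf6 encodes a receptor that takes part in iNKT cell selection, and its regions were highest in iNKT2 cells at 5 of 5 in C57BL/6 and 4 of 5 in Hivep3-/- mice. Averaged over the 5 regions, C57BL/6 libraries read 3.01 and 2.99 in iNKT1, 4.0 and 3.91 in iNKT2 and 2.72 and 2.50 in iNKT17, without overlap between subsets. The promoter (chr1:171917462-171917961, which also lies within the annotated gene Gm37065) was 3.90 and 3.56, 4.28 and 4.25, and 3.41 and 3.32 in C57BL/6 iNKT1, iNKT2 and iNKT17 libraries. In Hivep3-/- libraries it was 3.22 and 3.29, 4.42 and 4.67, and 3.07 and 2.66. It was higher in iNKT2 than iNKT17 cells by 0.90 (SE 0.20, adjusted p = 0.00181 by limma) in C57BL/6, under 3-fold, and by 1.68 (SE 0.20, 3.20-fold) in Hivep3-/- mice. The latter call was lost without Hivep3-/- iNKT17 replicate 2 (1.47) or iNKT2 replicate 2 (1.55), both under 3-fold. The region 1.27 kb upstream (171915996) had the same order with values of 3.04 and 3.16 in C57BL/6 iNKT2 against 0.97 and 0.74 in iNKT17 libraries, a 4.75-fold difference (2.25, SE 0.27, adjusted p = 1.75e-05 by limma). This region entered the test only through iNKT2, where it was high.

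At the coding exon of Slamf6 (171939277), C57BL/6 iNKT1 libraries read 4.78 and 4.83 and Hivep3-/- iNKT1 libraries 4.09 and 4.08. The genotypes did not overlap, and the change of -0.72 (SE 0.15, adjusted p = 0.0141 by limma) was under 3-fold. Downstream of the gene, accessibility went the other way. The region 8.332 kb past the gene end (chr1:171961502-171962001) was 1.11 and 1.39 in C57BL/6 and 2.73 and 3.04 in Hivep3-/- iNKT1 libraries. In iNKT2 it was 1.65 and 1.48 against 1.44 and 1.75, and in iNKT17 0.39 and 0.35 against -0.10 and -0.10. In iNKT1 cells both Hivep3-/- libraries were above both C57BL/6 libraries, and of the 6 groups Hivep3-/- iNKT1 was the one with a linear mean of at least 5. The rise of 1.63 (SE 0.35, 3.11-fold, adjusted p = 0.0128 by limma) was just past 3-fold. The region entered the test only through the group in which it was high, and it was not tested when the filter used the mean over all libraries. The change was 1.54 (adjusted p = 0.0511 by limma) with the pool as replicate block, which is under 3-fold, 1.50 (adjusted p = 0.115) without C57BL/6 iNKT1 replicate 1 and 1.48 (adjusted p = 0.191) without Hivep3-/- iNKT1 replicate 2. The depth guide was also higher in the Hivep3-/- iNKT1 libraries (227 and 491 against 139 and 170), and its part was not tested.

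Slamf1 encodes a self-binding receptor that also acts in iNKT cell selection, and its 7 regions showed no common order. Its promoter ranged only from 3.62 to 4.31. The intronic region at 171777961 was 1.82 and 1.39 in C57BL/6 iNKT1, 2.59 and 2.70 in iNKT2 and 3.57 and 2.83 in iNKT17 libraries, highest in iNKT17. Its difference between iNKT1 and iNKT17 was -1.59 (SE 0.31, 3.02-fold) in C57BL/6 and -1.98 (SE 0.31, 3.95-fold) in Hivep3-/- mice. The C57BL/6 value was -1.22 without iNKT17 replicate 1 and -1.38 without iNKT1 replicate 2, under 3-fold. The region 4.78 kb upstream (171762096) was higher in C57BL/6 iNKT1 than iNKT17 cells by 1.88 (SE 0.35, 3.68-fold), with 2.63 and 2.92 against 1.35 and 0.44. Each entered its C57BL/6 test only through the subset where it was high, iNKT17 at 171777961 and iNKT1 at 171762096. The intronic region at 171782470 was highest in iNKT2, with 4.90 and 4.72 against 3.25 and 3.07 in Hivep3-/- iNKT1 libraries (-1.65, SE 0.18, 3.14-fold). Neighbouring introns at 171788491 and 171789341 were lower in Hivep3-/- iNKT1 cells by -0.77 (SE 0.18, adjusted p = 0.0212 by limma) and -0.85 (SE 0.17, adjusted p = 0.00907 by limma), under 3-fold.

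Cd84 encodes another self-binding receptor that takes up SAP, and its promoter and its introns behaved differently. The promoter did not pass the test between any subsets, with group means within 0.263 of each other on the log2 scale. The intronic region 5.92 kb from the start (171845365) was 6.49 and 6.39 in C57BL/6 iNKT17, 5.02 and 5.31 in iNKT1 and 4.47 and 4.53 in iNKT2 libraries. iNKT17 stood above the other two without overlap, and iNKT2 was 3.85-fold below it in C57BL/6 (-1.94, SE 0.14) and 3.94-fold in Hivep3-/- mice. Further in, at 9.98 kb (171849431), iNKT17 was instead the lowest subset, with 3.80 and 3.98 in C57BL/6 iNKT1, 2.92 and 2.75 in iNKT2 and 1.74 and 1.43 in iNKT17 libraries. There iNKT1 was 4.94-fold above iNKT17 cells (2.30, SE 0.24) in C57BL/6 and 2.01-fold in Hivep3-/- mice. The C57BL/6 test was entered only through iNKT1, where the region was high. The difference of the genotype change between iNKT1 and iNKT17 was -1.30 (SE 0.34, adjusted p = 0.0732 by limma), under 3-fold and not called.

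Cd48 encodes a widely expressed membrane-anchored ligand, and its 7 regions were all highest in iNKT1 cells in both genotypes. Its promoter was higher in iNKT1 than iNKT17 cells by 0.75 in C57BL/6 (SE 0.20, adjusted p = 0.00580 by limma) and 0.64 in Hivep3-/- mice (SE 0.20, adjusted p = 0.0150 by limma), under 3-fold. The intron at 171684929 was 2.26 and 2.50 in C57BL/6 iNKT1 and -1.0 and -0.67 in iNKT2 libraries, and 2.64 and 3.14 against 0.78 and -1.38 in Hivep3-/- libraries. iNKT1 was higher by 3.22 (SE 0.62, 9.29-fold) in C57BL/6 and 3.19 (SE 0.62, 9.12-fold) in Hivep3-/- mice. The region 4.11 kb upstream (171677651) was 3.10 and 2.98 in Hivep3-/- iNKT1 but -2.43 and -3.06 in Hivep3-/- iNKT2 libraries, a difference of 5.78 (SE 0.60). In C57BL/6 mice the same region read 2.13 and 2.03 against -3.02 and -2.39, and it was not tested because its linear mean stayed under 5 in both groups. Accessible Cd48 regions numbered 6 in C57BL/6 iNKT1, 7 in Hivep3-/- iNKT1 and 3 in every other group. The calls at 171684929, and at 171677651 in Hivep3-/- mice, came from regions that entered the test only through iNKT1, where they were high.

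Ly9 likewise had all 4 regions highest in iNKT1 cells in both genotypes. The region over coding and untranslated exon sequence at 171604711, which also lies within Cd244a, was 3.73 and 4.49 in C57BL/6 iNKT1, 0.63 and 1.57 in iNKT2 and 1.18 and 1.60 in iNKT17 libraries. In Hivep3-/- libraries it was 4.97 and 5.09, -0.13 and 1.40, and 1.82 and 2.45. iNKT1 stood apart in both genotypes, 8.05-fold above iNKT2 (3.01, SE 0.47) and 6.59-fold above iNKT17 (2.72, SE 0.47) in C57BL/6 mice. Its promoter differed by 0.37 at most between C57BL/6 subsets. Upstream regions at 171609970 and 171613899 were called higher in iNKT1 than iNKT17 (1.93, SE 0.30) and than iNKT2 cells (1.83, SE 0.31) in C57BL/6 mice. In both genotypes all 4 Ly9 regions were accessible in iNKT1 but 1, the promoter, in iNKT2 and in iNKT17. The other regions thus entered these tests only through iNKT1, the subset in which they were high.

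**Figure D3:**
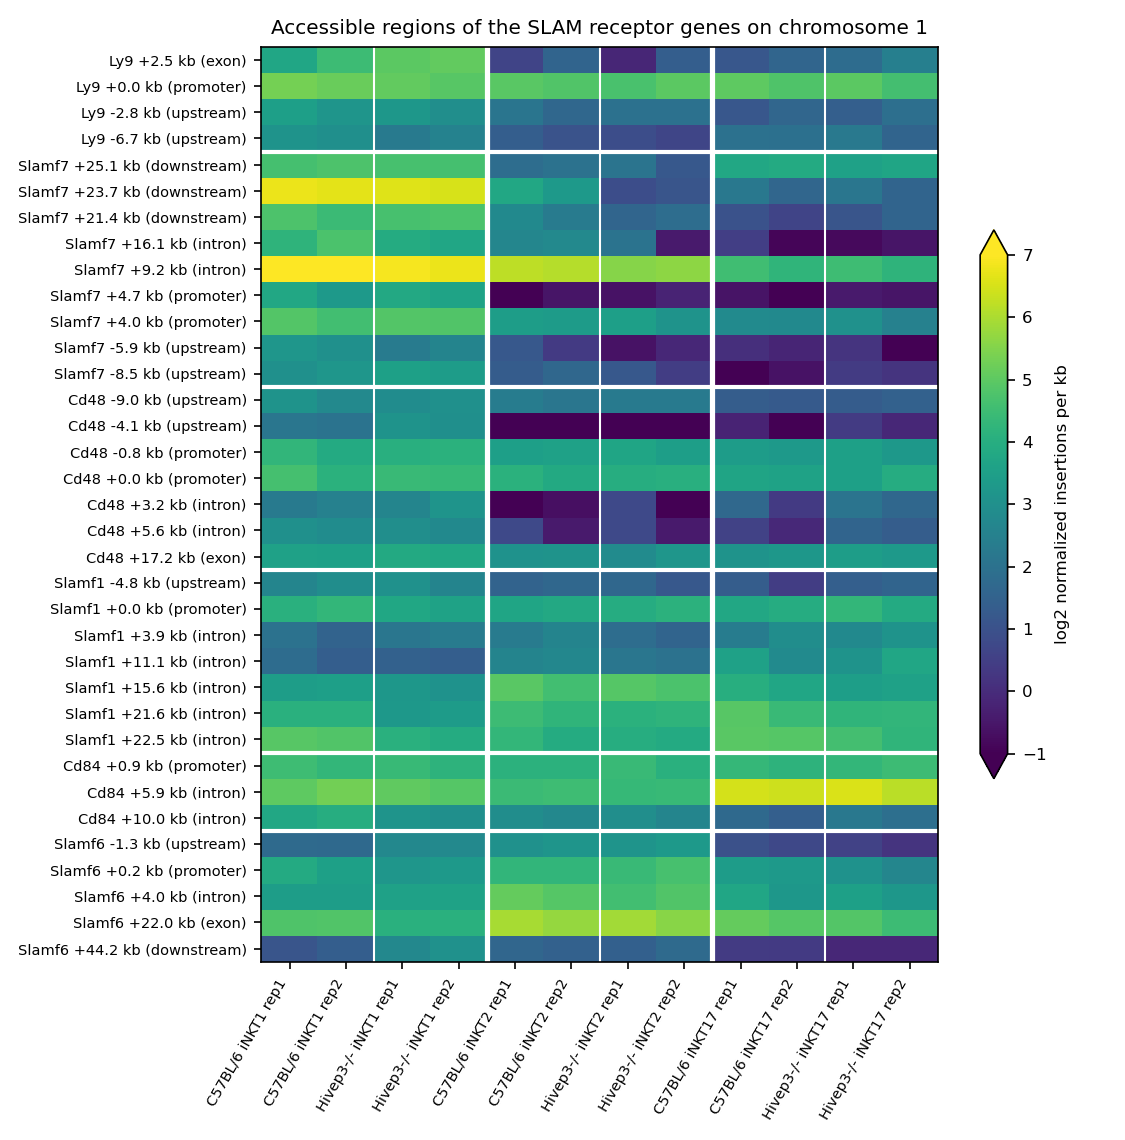
Accessibility of the 35 regions of the 6 receptor genes on chromosome 1 (rows in chromosome order, labelled with gene, kb from the gene start and place) in 12 libraries (columns, by subset and within it C57BL/6 then Hivep3-/-), as log2 normalized insertions per kb. The colour scale runs from -1 to 7, and values beyond it take the end colours. Slamf7, Ly9 and Cd48 rows are highest in the iNKT1 columns, and Slamf6 rows in the iNKT2 columns except for its last region in Hivep3-/- mice.

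Sh2d1a, the source of SAP, had its promoter (chrX:42502252-42502751) and an intronic region (42511011), and both were highest in iNKT2 cells in both genotypes. The promoter read 4.55 and 4.35 in C57BL/6 iNKT1, 4.82 and 4.58 in iNKT2 and 3.76 and 3.86 in iNKT17 libraries. In Hivep3-/- libraries it read 4.19 and 4.20, 4.49 and 4.24, and 4.27 and 3.63. In C57BL/6 mice iNKT17 libraries lay below all others, whereas in Hivep3-/- mice iNKT17 replicate 1 lay within the range of iNKT2. iNKT2 was above iNKT17 by 0.89 (SE 0.20, adjusted p = 0.00209 by limma) in C57BL/6, under 3-fold, and by 0.41 (SE 0.20, 95% interval -0.01 to 0.84, adjusted p = 0.103 by limma) in Hivep3-/- mice. The intron stayed between 2.35 and 3.02 in all 12 libraries. No change between genotypes was called. The estimate at the promoter was -0.26 for iNKT1 cells, -0.34 for iNKT2 cells and 0.14 for those of iNKT17, each with an SE of 0.20. The 1142 other regions of the X chromosome had median changes of -0.015, 0.040 and 0.022 in the same subsets.

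Fyn combined a promoter that varied little between groups with distal regions that differed sharply between subsets. The promoter difference between C57BL/6 iNKT1 and iNKT17 cells was -0.22 (adjusted p = 0.0903 by limma), far under 3-fold. The region in an intron 146.46 kb from the start (chr10:39515062-39515561) was 4.34 and 4.36 in C57BL/6 iNKT17, 2.77 and 2.48 in iNKT1 and -1.38 and -1.06 in iNKT2 libraries. In Hivep3-/- libraries it was 4.67 and 4.85, 2.45 and 2.58, and -1.22 and -0.59. The 3 subsets did not overlap in either genotype, and iNKT2 was nearly closed here. iNKT2 stood below iNKT17 by 5.57 (log2 difference -5.57, SE 0.30, adjusted p = 2.47e-08 by limma) in C57BL/6 and below it by 5.67 (-5.67, SE 0.30) in Hivep3-/- mice. iNKT1 was above iNKT2 by 3.84 (SE 0.30) and below iNKT17 with a difference of -1.73 (SE 0.30, 3.31-fold) in C57BL/6, the latter being -1.58 without C57BL/6 iNKT1 replicate 2. The region entered the tests against iNKT2 only through the other subset, where it was high.

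At the other end of the gene, the region over the untranslated part of the last exon (chr10:39564597-39565096, 195.99 kb from the start) was also highest in iNKT17 cells. C57BL/6 libraries read 5.03 and 5.03 in iNKT17, 2.47 and 2.25 in iNKT1 and 1.42 and 1.39 in iNKT2, and Hivep3-/- libraries 4.98 and 5.20, 3.49 and 3.57, and 2.25 and 2.70. iNKT17 was above iNKT1 by 6.35-fold (-2.67 for iNKT1 minus iNKT17, SE 0.20) and above iNKT2 by 12.4-fold (-3.63, SE 0.20) in C57BL/6. In iNKT1 and in iNKT2 both Hivep3-/- libraries lay above both C57BL/6 libraries, by 1.17 (SE 0.20, adjusted p = 0.00425 by limma) and 1.08 (SE 0.20, adjusted p = 0.00494 by limma), each short of 3-fold. The region entered the C57BL/6 test of iNKT2 against iNKT17 only through iNKT17, and the genotype test in iNKT2 only through Hivep3-/- cells. It also lies within the annotated gene Gm16365.

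Other distal Fyn regions favoured each of the subsets. At 61.71 kb (39430320) iNKT2 was highest in C57BL/6, with 3.46 and 4.30 against 2.55 and 3.00 in iNKT17 and 0.92 and 0.20 in iNKT1 libraries, and iNKT1 was 10.0-fold below iNKT2 (-3.32, SE 0.33, adjusted p = 3.32e-06 by limma). The region 10.20 kb upstream (39358403) was likewise higher in iNKT2, at 4.31 and 4.33 against 2.45 and 2.61 in C57BL/6 iNKT1 libraries (-1.80, SE 0.20). Towards iNKT17, the intron at 18.49 kb (39387100) read 5.21 and 5.10 against 3.02 and 3.26 in iNKT1 (-2.02, SE 0.23) and 3.53 and 2.83 in iNKT2 (-1.98, SE 0.23), and the intron at 53.94 kb (39422545) 3.19 and 2.59 against 1.00 and 0.17 in iNKT2 (-2.31, SE 0.39). The region at 39422545 entered its test only through iNKT17, and that at 39430320 only through iNKT2, where each was high. iNKT1 was the highest subset at a run of introns between 100.74 and 117.82 kb. The highest difference there was 2.76 (SE 0.31, 6.77-fold) from iNKT17 at 39479326, with 4.89 and 4.58 in C57BL/6 iNKT1 against 2.16 and 1.79 in iNKT17 libraries. That region entered the test only through iNKT1. Also called against iNKT17 in this run were 39469342 (2.10), 39470996 (1.80), 39472030 (2.35) and 39486422 (1.75), with SE between 0.196 and 0.402.

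**Figure D4:**
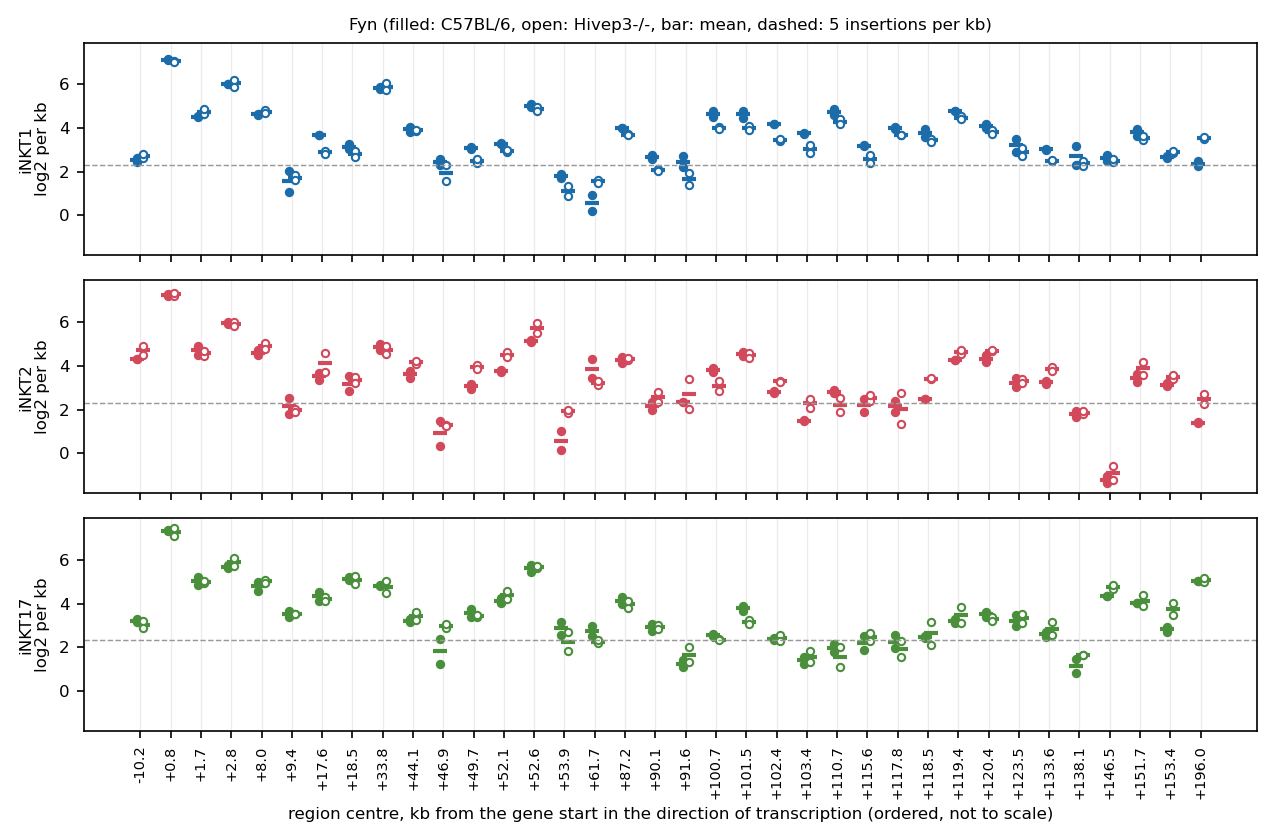
The 36 regions of Fyn in each library, ordered by kb from the gene start (spacing not to scale), in 1 panel per subset, as log2 normalized insertions per kb. Filled points are C57BL/6, open points Hivep3-/-, short bars means of 2 libraries, and the dashed line marks 5 insertions per kb. The promoter lies above 7 in all panels, and the region at 146.46 kb falls below 0 in iNKT2 alone.

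Counted over all members, a call required both an adjusted p under 0.1 by limma and a difference of at least 3-fold. Between C57BL/6 subsets, 17 of 69 tested members (24.6%) were called for iNKT1 against iNKT2, 15 higher and 2 lower in iNKT1, where 16.0% of all tested regions were called. For iNKT1 against iNKT17, 25 of 70 (35.7%) were called, 19 higher and 6 lower, against 20.5% of all regions, and for iNKT2 against iNKT17 11 of 56 (19.6%), 5 higher and 6 lower, against 16.2%. Slamf7 alone gave 7, 8 and 5 of these calls from 9, 9 and 6 tested regions, and Fyn gave 6, 10 and 4 from 34, 36 and 31. All 9 Slamf7 regions were accessible in iNKT1, and 4 and 6 of them entered the tests against iNKT2 and iNKT17 through that subset alone. Sh2d1a gave none in any comparison. In Hivep3-/- mice 19 of 68 (27.9%), 19 of 71 (26.8%) and 9 of 54 (16.7%) members were called for the same pairs, where the background was 17.3%, 19.3% and 15.6%. In both genotypes the members' share was above the background for iNKT1 against either other subset and near it for iNKT2 against iNKT17. These shares include Slamf7, with 77.8% and 88.9% of its tested regions called for iNKT1 against iNKT2 and iNKT17 in both genotypes. For the same pairs Fyn had 17.6% and 27.8% in C57BL/6 and 15.2% and 17.6% in Hivep3-/- mice. In C57BL/6 mice Ly9 had 50.0% in both pairs and Cd48 33.3% in both, each from few regions. Cd84 had 0% and 33.3%, Slamf1 0% and 28.6%, and Slamf6 and Sh2d1a 0% in both. The excess was thus neither shared by all genes nor confined to Slamf7.

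Most calls between subsets were made in both genotypes and in the same direction. This held for 16 members for iNKT1 against iNKT2 (94.1% of the C57BL/6 and 84.2% of the Hivep3-/- calls) and for 16 for iNKT1 against iNKT17 (64.0% and 84.2%). For iNKT2 against iNKT17 it held for 6 (54.5% and 66.7%), and 4 of the 5 calls made in C57BL/6 mice alone were Slamf7 regions. For this pair 6 Slamf7 regions were tested in C57BL/6 but 3 in Hivep3-/- mice, so a call in 1 genotype alone can reflect a missing test in the other. Of the 73 members, 40 (54.8%) were accessible in all 6 groups, against 65.0% of all regions, 38 (52.1%) were called between subsets in either genotype, against 34.8%, and 35 (47.9%) in no comparison, against 64.8%.

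Between genotypes, few members passed both thresholds, as did few of all regions. In iNKT1 cells 1 of 68 tested members (1.47%) was called, the region downstream of Slamf6, where 1.15% of all regions were called. In iNKT2 cells 2 of 53 (3.77%) were called, both at Slamf7, against 1.68% of all regions. An unadjusted p under 0.05 by limma was found at 17 of 68 members in iNKT1 and 15 of 53 in iNKT2 cells. Over all tested regions it was found at 9644 of 54145 and 13911 of 55049. In iNKT17 cells 0 of 51 were called by limma, with 6 at an unadjusted p under 0.05, against 0.271% of all regions. On the average of the subsets 0 of 73 were called by limma, with 13 at an unadjusted p under 0.05, against 0.529%. Over all tested regions, 8570 of 54311 in iNKT17 cells and 17396 of 63308 on the average had such an unadjusted p. Within 1 Mb of the SLAM cluster, 7 of 126 other tested regions were called in iNKT2 cells, all lower in Hivep3-/- mice, which is 5.56%, and 0 of 140 in iNKT1 and 0 of 122 in iNKT17 cells. Over all regions, 662 of the 923 called in iNKT2 cells were lower in Hivep3-/- mice.

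**Figure D5:**
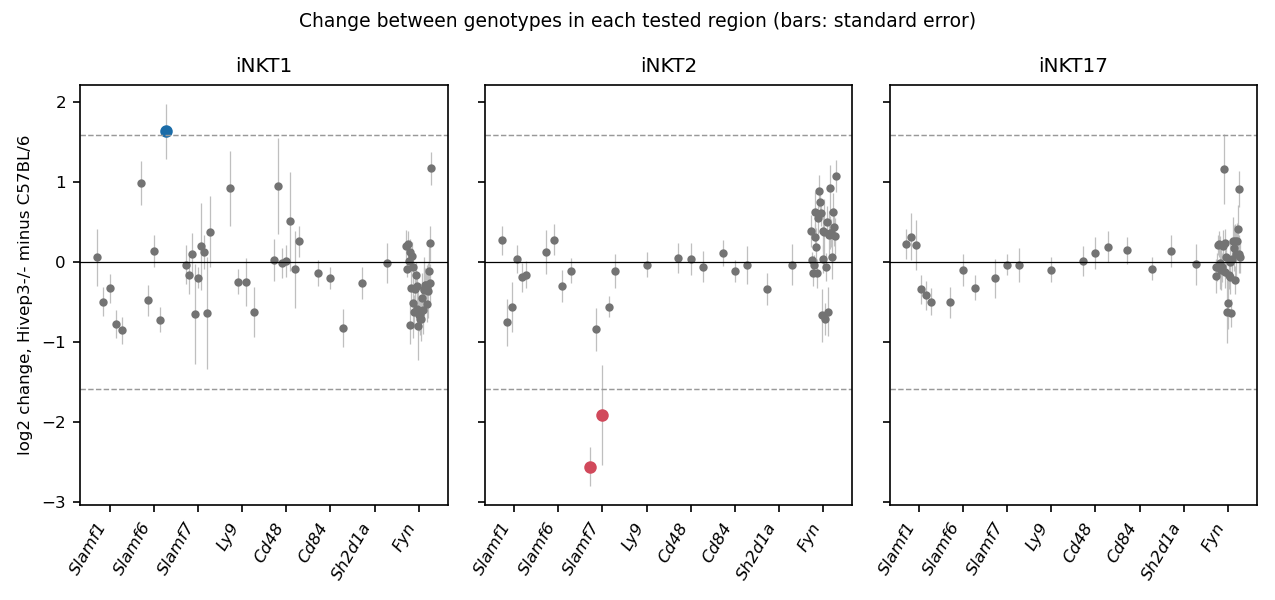
Log2 change from C57BL/6 to Hivep3-/- at each tested region by gene, in 1 panel per subset, with grey bars for the standard error, dashed lines at 3-fold and coloured points for called regions. Called were 1 Slamf6 region in iNKT1 and 2 Slamf7 regions in iNKT2, and no region in iNKT17.

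At Fyn, no region was called between genotypes, and the estimates lay to opposite sides in iNKT1 and iNKT2 cells. The depth guide also differed in opposite directions, being higher in Hivep3-/- than C57BL/6 iNKT1 libraries and lower in Hivep3-/- than C57BL/6 iNKT2 libraries. Its part was not tested. Among regions accessible in both genotypes, 23 of 30 had lower estimates in Hivep3-/- iNKT1 cells, with a median log2 change of -0.30, and 19 of 25 had higher estimates in iNKT2 cells, with a median of 0.37. In iNKT17 cells 15 of 28 were higher and the median was 0.02. The medians over all tested regions were -0.018, -0.0011 and -0.012. Of the 36 Fyn regions, 3, 7 and 5 were not tested in the respective subsets. Other regions within 1 Mb of Fyn had medians of -0.11, -0.005 and -0.091, with higher estimates at 23 of 64, 32 of 64 and 24 of 68 tested. On chromosome 1 outside the members, 1569 of 3404 tested regions had higher estimates in iNKT1 and 1694 of 3485 in iNKT2 cells. The regions of a gene come from the same libraries, so these counts are not separate observations of the genotype. The intron 49.75 kb from the start (39418352) read 3.04 and 3.14 in C57BL/6 against 2.38 and 2.57 in Hivep3-/- iNKT1 libraries, and 2.95 and 3.18 against 4.06 and 3.86 in iNKT2 libraries. Its change was -0.62 (SE 0.20, adjusted p = 0.0949 by limma) in iNKT1 and 0.89 (SE 0.20, adjusted p = 0.0132 by limma) in iNKT2 cells, under 3-fold in both.

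The genotype effect was then compared across subsets with interaction terms. For iNKT1 against iNKT2, 3 of 71 tested members (4.23%) were called, against 3.06% of all regions. The change at the Slamf7 region 2.778 kb past the gene end was higher in iNKT1 than in iNKT2 by 2.40 (SE 0.35, adjusted p = 0.00224 by limma), the changes being -0.16 and -2.55. That of the Slamf6 region 8.332 kb past the gene end, tested only through Hivep3-/- iNKT1 cells, was higher by 1.60 (SE 0.49, adjusted p = 0.0717 by limma), and that of the Fyn intron at 61.71 kb by 1.66 (SE 0.47, adjusted p = 0.0519 by limma). At the latter, Hivep3-/- iNKT1 libraries were above those of C57BL/6 (1.63 and 1.48 against 0.92 and 0.20) and Hivep3-/- iNKT2 libraries below (3.14 and 3.29 against 3.46 and 4.30). The Slamf6 difference was lost without any 1 of 7 of the 8 libraries compared (adjusted p from 0.104 to 0.290 by limma, log2 1.45 to 1.76). That of Fyn was lost without any 1 of 5 (C57BL/6 iNKT1 replicate 2 and iNKT2 replicate 2, Hivep3-/- iNKT1 replicates 1 and 2 and iNKT2 replicate 1, adjusted p from 0.126 to 0.222).

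For iNKT1 against iNKT17, 1 of 73 members (1.37%) was called, against 1.42% of all regions, again the region downstream of Slamf6, with a difference of 2.10 (SE 0.49, adjusted p = 0.0478 by limma). Leaving out C57BL/6 iNKT1 replicate 1, either iNKT17 replicate of C57BL/6 or either Hivep3-/- iNKT1 replicate lost it (adjusted p from 0.101 to 0.255 by limma). For iNKT2 against iNKT17, 1 of 58 (1.72%) was called, against 1.02%, namely the Slamf7 region past the gene end with -2.48 (SE 0.35, adjusted p = 0.00571 by limma). With the pool as replicate block, 2 members were called in each of these comparisons, since the Fyn introns at 39415542 (-1.68, adjusted p = 0.0635 by limma) and 39422545 (1.97, adjusted p = 0.0476 by limma) were added. At Fyn as a whole, the difference of the change between iNKT1 and iNKT2 was lower than 0 at 19 of the 23 regions accessible in all 4 groups, with a median of -0.58, and 39418352 had the lowest adjusted p of 0.00808 by limma (-1.51, SE 0.28). The median over all tested regions was -0.011. These Fyn regions come from the same libraries, and the part of the depth guide, which differed in opposite directions in the 2 subsets, was not tested.

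Other genes of the pathway, taken as a list of SLAM receptors, SAP relatives, signalling partners and phosphatases, had 148 regions outside the members. Between C57BL/6 subsets 16 of 142 tested regions (11.3%) were called for iNKT1 against iNKT2, 21 of 143 (14.7%) for iNKT1 against iNKT17 and 13 of 139 (9.35%) for iNKT2 against iNKT17. These shares were below the 16.0%, 20.5% and 16.2% of all regions. Those of the members, Slamf7 included, were 24.6%, 35.7% and 19.6%, the last near its background. For iNKT1 against iNKT2 and iNKT17 the other SLAM receptors in the list had 42.9% and 57.1%. The signalling partners had 9.09% and 11.9%, the phosphatases 12.5% and 15.4% and the SAP relatives 0% in both. Between genotypes, 1 of 140 was called in iNKT1, a region of the transcription factor gene Nfkb1 that rose by 1.80, 1 of 137 in iNKT2, a region of the lipid phosphatase gene Inpp5d that rose by 2.04, and 0 of 127 in iNKT17 cells. Cd244a, which encodes the receptor for CD48 and lies beside Ly9, had 6 such regions, of which 3 were called higher in iNKT1 than iNKT2 and 4 higher than iNKT17 cells in both genotypes. Sh2d1b2, which encodes a SAP relative, had 1 region, which was not called, and Sh2d1b1 had none.

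As a description over the 6 group means, the promoters whose pattern was most like that of Slamf7 among 21180 promoter regions were those of Atad1 (Pearson r 0.9999) and Kri1 (0.9994), and for Slamf6 those of Mindy1 and Prune1 (a shared region, 0.9976), Plekha5 (0.9939) and Mad1l1 (0.9938). The group means of these promoters spanned 0.370 to 2.03 on the log2 scale. The points share the normalization and the libraries.

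The central 300 bases of the members were searched on both strands for 10 short motifs, and the share of all 63309 windows that hold each is given beside that of the members. The Runt motif AACCACA was in 14 of 73 member windows (19.2%, against 13.7% of all windows), the bZIP motif TGACTCA in 12 (16.4% against 8.68%) and the T-box motif GGTGTGA in 8 (11.0% against 5.86%). The motif AGATAA, bound by proteins of the GATA family, was in 8 (11.0% against 12.9%). ROR (TNGGTCA) was in 7 (9.59% against 11.9%), TCF (TTCAAAG) in 5 (6.85% against 7.23%) and NFAT (TTTTCCA) in 5 (6.85% against 5.12%). ETS (CCGGAAG) was in 2 (2.74% against 6.63%), NF-kB (GGANTTTCC) in 1 (1.37% against 1.69%) and Egr (GTGGGCG) in 0 (against 6.33%). Of the windows printed above, the Slamf7 window past the gene end holds a T-box match at base 169, and the intronic Slamf7 window 2 GATA matches, at bases 13 and 94, a bZIP match at 231 and a ROR match at 267, counted from the first base. The Slamf6 window has a TCF match at base 72, and both Fyn windows have none of the 10. Members were lower in GC content than all windows, with medians of 47.0% and 51.0%. A match describes the letters and does not show binding.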

How the data were processed

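ATAC-seq was measured in 12 libraries, 2 for each of 3 iNKT subsets in C57BL/6 and Hivep3-/- mice. The authors deposited 1 table of log2 values for all libraries: insertions in regions of 500 bp of mm10, normalized with voom and divided by length in kb. Trimmomatic 0.39 is named in the submitters' processing notes. Columns of the authors' own comparisons were not used, and 0 columns of libraries were left unmapped. Because the values are already normalized, library depth is unknown and no counting interval is given.

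The values were fitted as deposited with limma 3.58.1 in R 4.3.3, with 6 group means over all 12 libraries and a variance trend, which left 6 residual and 7.17 prior degrees of freedom. Regions entered a test when 1 of the compared groups averaged 5 or more insertions per kb on the linear scale. A region that reached this in 1 group alone thus entered through the group where it was high. Calls needed a Benjamini-Hochberg adjusted p under 0.1, over all regions tested in a comparison, and a 3-fold difference. Tests are two-sided. Differences between subsets within a genotype share libraries. The scripts were tested on simulated data with fixed seeds.

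The fit did not include replicate numbers, and pairing by them was run only as an alternative, with replicate blocks. Subsets of a number came from 1 pool per the labels' protocol. Deviations from the group means of same-numbered samples correlated at 0.12 to 0.167 within a genotype. Between genotypes, which shared no pool, they correlated as much, at 0.113 to 0.171 in the same subset and 0.0911 to 0.174 otherwise, so the correlations do not set pools apart from numbers. Regions were assigned to GENCODE vM21 genes with Python 3.11.15 and pandas 2.3.3, and sequence was read from GRCm38.p6 with pysam 0.24.0. The genes, lists, motifs and tests were chosen with earlier results of these data known. Named were the most open promoter region of each gene, every member called between genotypes or in a difference of such changes, the 3 largest called rises and falls between each pair of C57BL/6 subsets, the region of each gene with the widest group means, and the 3 promoters most like a promoter that spans 3-fold. Other regions were chosen after their values were seen. Alternatives were other filters, pseudocounts of 1 and 5, quantile normalization, no variance trend, the compared libraries alone, replicate blocks, a 2-fold threshold, the gene body alone, centring on the X chromosome and leaving out each library.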

Additional observations from a re-analysis of the deposited data

Results flagged for a closer look

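In 5 cases an interaction term for the change from C57BL/6 to Hivep3-/- between subsets passed the threshold. At the Slamf7 region 2.778 kb past the gene end, the change in iNKT1 exceeded that in iNKT2 by 2.40, and the change in iNKT2 was below that in iNKT17 (-2.48). At the region past the end of Slamf6, the change in iNKT1 exceeded that in iNKT2 by 1.60 and that in iNKT17 by 2.10. This Slamf6 region was tested only through Hivep3-/- iNKT1, in which it was high, was not tested with a filter on the mean over all libraries, and was called in 7 of 17 and 10 of 17 alternatives. At the Fyn intron 61.71 kb from the start, the change in iNKT1 exceeded that in iNKT2 by 1.66.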

How the results depend on the processing

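Counts of called members are given as main count and then under the setting. Without the filter on low values, the difference of changes between iNKT2 and iNKT17 went from 1 to 3. With a linear mean of at least 5 over all libraries, the genotype change in iNKT1 went from 1 to 0, iNKT1 against iNKT2 from 17 to 11 in C57BL/6 and from 19 to 12 in Hivep3-/- mice, and the difference between iNKT1 and iNKT17 from 1 to 0. A pseudocount of 1 gave 0 and 1 for the genotype change in iNKT1 and iNKT2, and 1 and 0 for the differences of iNKT1 from iNKT2 and iNKT17. A pseudocount of 5 gave 0 for all genotype changes and differences, and 4, 7 and 3 (C57BL/6) and 5, 8 and 3 (Hivep3-/-) for iNKT1 against iNKT2, iNKT1 against iNKT17 and iNKT2 against iNKT17. Quantile normalization gave 0 for the genotype change in iNKT1, and no variance trend gave 1 for that in iNKT2.

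With the pool as replicate block, the genotype change in iNKT1 went from 1 to 0, and the differences of iNKT17 from iNKT1 and from iNKT2 each from 1 to 2. A replicate block shared between genotypes gave 2 for the latter. The pairing moved no other count of calls by over 1.5 times. A 2-fold threshold gave 2 for the genotype change in iNKT1, 1 for the average, 29 and 19 (C57BL/6, iNKT1 and iNKT17 against iNKT2), 33, 35 and 21 (Hivep3-/-) and 10, 4 and 2 for the differences. The gene body alone gave 0, 1, 10, 7, 11 and 12 for the genotype change in iNKT1 and iNKT2, the 2 C57BL/6 comparisons with iNKT2 and iNKT1 against iNKT2 and iNKT17 in Hivep3-/- mice, and 1, 0 and 0 for the differences. The latter setting has fewer members, and otherwise the cause was not tested.

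Leaving out each library in turn gave 0 to 1 (iNKT1), 1 to 2 (iNKT2), 0 (iNKT17) and 0 (average) for the genotype change. It gave 16 to 17, 23 to 25 and 9 to 13 between C57BL/6 subsets and 18 to 20, 19 to 22 and 8 to 10 between Hivep3-/- subsets. The 3 differences gave 1 to 7, 0 to 2 and 1 to 2. The 7 came without Hivep3-/- iNKT2 replicate 2, and the 1 without C57BL/6 iNKT1 replicate 2 or Hivep3-/- iNKT1 replicate 1. No named call turned its direction in the settings run. Groups of 2 libraries with unknown depth limit the precision of every value, and a fit without a library that leaves a group with 1 sample assumes that it varies like the others.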
